A study of Saccharomyces cerevisiae EC1118 with 12 samples.

Results

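Graded oxygen was followed in the wine yeast Saccharomyces cerevisiae EC1118 by fitting, for each gene, a straight line over 4 ordered oxygen levels, using all 12 of the 12 arrays of the series. EC1118 is a commercial strain used to start wine fermentations. Its cultures grew at steady state in chemostats, vessels fed and drained at a constant rate, on a modified MS300 synthetic grape must in which nitrogen was the limiting nutrient, at a dilution rate of 0.1 per hour and pH 3.5. The groups, with 3 arrays each, differed in the sparging gas: nitrogen alone (anaerobic), or oxygen-nitrogen mixtures of 1%, 5% and 20% oxygen. These levels were coded 0, 1, 2 and 3, so a slope is a log2 difference per level. Every group shares the strain, the medium and the nitrogen limitation, so all results are those of nitrogen-limited cells. The labels give dissolved oxygen in 2 conflicting ways, as 0, 1.2, 2.7 and 5 micromolar in the titles and as 0, 0.8, 4 and 11 micromolar in the condition text, and groups are therefore named by the gas. Nothing in the labels tells whether arrays of 1 group come from separate vessels, so each p-value reflects array-to-array spread that may be technical only.

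Yeast needs molecular oxygen to make heme, sterols and unsaturated fatty acids. Without it, cells import sterol, replace part of their cell wall mannoproteins with members of the TIR, DAN and PAU families, and switch to hypoxic forms of several enzymes. With it, heme-dependent activators turn on genes of the respiratory chain, while the repressor Rox1 silences hypoxic genes.

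Most genes with a trend stepped in one direction at every level. The falls included 10 of 13 sterol uptake and anaerobic mannoprotein genes, a list chosen with earlier results of these data known. Of 5449 genes tested, 182 had a called trend (3.34% of all genes; limma, moderated test of the slope, Benjamini-Hochberg adjusted p under 0.05), with 94 rises (1.73%) and 88 falls (1.61%). At an unadjusted p under 0.05 there were 1133 genes. Slopes of the rises lay between 0.23 and 1.64 per level and those of the falls between -2.03 and -0.25, against a median of 0.02 over all genes. The group means were in order at every step for 142 of the 182 (78%), against 635 of all genes (11.7%); the trend call itself favours such genes. All 182 genes had no overlap between the 20% and the anaerobic arrays, as had 34.2% of all genes. The call held with each of the 12 arrays left out in turn for 66 genes, 22 rises and 44 falls. The gene just inside the threshold was PIN3 (-0.60 ± 0.15 SE, adjusted p = 0.0464), and the one just outside was BRE4 (0.28 ± 0.07, adjusted p = 0.0506).

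For each gene the point along the series at which 50% of the change had been reached was read off the group means. The total change is the 20% mean minus the anaerobic mean, and the midpoint position is where straight lines between group means first cross the middle of those means, in units of the level code. A position under 1 means that the midpoint was reached by 1% oxygen, and one over 2 that it was reached only between 5% and 20%. Equal steps would place it at 1.5, with 33.3% of the change reached at 1% and 66.7% at 5%. It was taken for the 147 called genes whose total change was at least 1 (a 2-fold difference), 64 rises and 83 falls. The other 35 called genes changed by less. Positions and shapes are descriptions and carry no test.

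Cell wall mannoproteins and sterol uptake genes fell over the whole series, most of them between 1% and 5% oxygen. Of 13 tested genes of this list, 10 fell and 0 rose (76.9% called, against 3.34% of all genes; median slope -1.18), and the median difference from anaerobic over the list was -1.05 at 1%, -2.53 at 5% and -3.32 at 20% oxygen. The midpoint was reached by 1% in 1 gene, between 1% and 5% in 8 and after 5% in 1. The median member had reached 32.9% of its change at 1% oxygen and 77.3% at 5%. This list also holds HES1, of the oxysterol-binding family. Like the other function lists it was chosen with earlier results of these data known. Its share beside that of all genes is therefore a description and not independent support.

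TIR2, a mannoprotein of anaerobic and cold-grown cells, had levels of 12.20, 12.73 and 12.48 on the anaerobic arrays, 11.65, 11.83 and 10.84 at 1%, 9.19, 9.57 and 7.63 at 5%, and 7.33, 7.49 and 8.07 at 20% oxygen. Anaerobic, 1% and 5% arrays formed separate ranges, while the lowest 5% array lay within the 20% range. The slope was -1.72 ± 0.15 (adjusted p = 5e-05) and the midpoint position 1.53. TIR4 had 12.23, 12.69 and 12.37 anaerobically, 11.40, 11.25 and 8.76 at 1%, 6.86, 9.02 and 6.29 at 5%, and 7.63, 4.70 and 7.76 at 20%. Its 20% and 5% arrays overlapped, and 1% array 3 lay below the highest 5% array. Its slope, -2.03 ± 0.30 (adjusted p = 0.00161), was the steepest fall of the 182. AUS1, the transporter that imports sterol, had 9.52, 10.66 and 10.36 anaerobically, 9.30, 9.23 and 8.86 at 1%, 6.99, 8.14 and 6.82 at 5%, and 6.70, 6.93 and 6.97 at 20%, with a slope of -1.18 ± 0.13 (adjusted p = 0.000137) and a midpoint position of 1.34. For AUS1 the 20% and 5% arrays overlapped and the other ranges were separate. TIR4, TIR2 and AUS1 are neighbours in the R64 reference order and made the longest run of adjacent genes with a trend in the same direction. Such runs numbered 12 and held 25 of the 182 genes. The number to be met by chance was not worked out, so the count is a description.

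TIR1 fell in nearly equal steps. Its levels were 12.77, 12.90 and 12.78 anaerobically, 11.95, 12.23 and 10.67 at 1%, 10.46, 10.90 and 9.48 at 5%, and 9.35, 7.02 and 9.64 at 20% oxygen. The ranges of neighbouring levels overlapped except between anaerobic and 1%. The slope was -1.38 ± 0.18 (adjusted p = 0.00071), 28.9% of the change was reached at 1% and 61.1% at 5%, and the shape was graded with each array left out. HES1, of the oxysterol-binding family, had 9.02, 10.03 and 10.00 anaerobically, 8.59, 8.59 and 8.80 at 1%, 5.09, 7.30 and 4.48 at 5%, and 4.08, 4.19 and 5.07 at 20%. Anaerobic, 1% and 5% arrays did not overlap, and 19.6% of the change was reached at 1% against 77.5% at 5% (slope -1.88 ± 0.20, adjusted p = 0.000137). UPC2, the zinc-cluster activator of sterol uptake and wall mannoprotein genes, fell with them (-0.89 ± 0.10, adjusted p = 0.000256, midpoint position 1.26), as did the sterol importer PDR11 (-0.73 ± 0.12, adjusted p = 0.00447, midpoint position 1.27). TIR3 fell too (-1.07 ± 0.22, adjusted p = 0.0161), with a call that ended without anaerobic array 2 or 3 or 20% array 2 (adjusted p up to 0.0709).

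DAN1 and its neighbour DAN4 fell at different points. DAN1, a wall mannoprotein typical of anaerobic cells, stayed high at 1%: it had 12.57, 12.71 and 12.67 anaerobically, 12.31, 12.59 and 11.67 at 1%, 9.46, 11.68 and 8.94 at 5%, and 7.58, 4.93 and 9.27 at 20% oxygen. The second 1% array lay within the anaerobic range, and the highest 5% array within the 1% range. The slope was -1.83 ± 0.30 (adjusted p = 0.00378), with 8.48% of the change reached at 1% and 48.6% at 5%, so that both later steps carried the fall. DAN4 had 7.36, 10.48 and 8.88 anaerobically, 7.32, 7.04 and 5.62 at 1%, 5.29, 6.05 and 5.26 at 5%, and 4.89, 5.21 and 5.92 at 20%. Its anaerobic arrays lay above all others, which overlapped. The slope of DAN4 was -1.18 ± 0.23 (adjusted p = 0.012, and 0.0602 without anaerobic array 3), with 63% of the change reached at 1%. The midpoint positions were 2.03 for DAN1 and 0.79 for DAN4, and with each array left out they ranged from 1.75 to 2.19 and from 0.69 to 1.03. The difference between these positions was not tested.

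**Figure D1:**
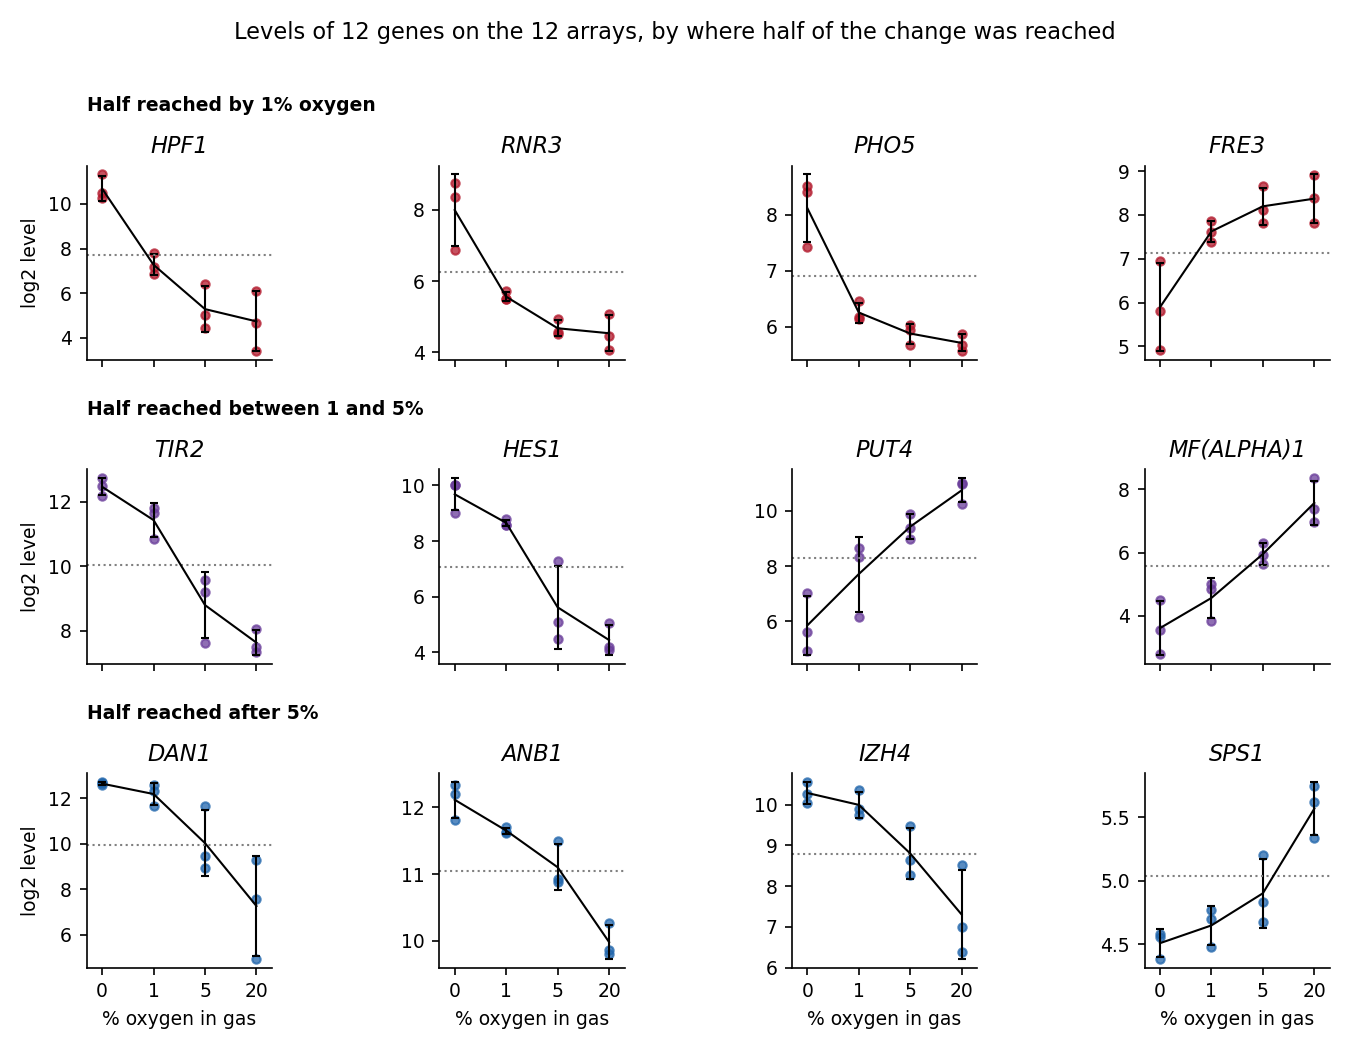
Log2 levels (vertical axes, each with its own range) of 12 genes against the oxygen in the gas (horizontal axis, % in equal steps as coded). Points are single arrays, lines join group means, bars are 1 SD (n = 3) and the dotted line is the middle of the 20% and anaerobic means; the lines cross it before 1% in the top row, between 1% and 5% in the middle row and after 5% in the bottom row.

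The PAU family, which encodes small seripauperin wall proteins, fell mostly within the first step. All 13 tested members had negative slopes, against 44% of all genes, and 9 of them were called falls (69.2%, against 3.34% of all genes; median slope of the list -0.90). Without anaerobic array 2 or 3 the count was 3, over all single omissions it was 3 to 10, and with replicate number as block it was 4. The median difference from anaerobic was -2.41 at 1%, -2.90 at 5% and -2.78 at 20% oxygen. All 9 called members reached the midpoint by 1%, 6 were switch-like and 3 mixed, and the median had reached 85.1% at 1% and 98.8% at 5%. PAU18 had 8.22, 10.19 and 10.12 anaerobically, 6.22, 7.20 and 5.91 at 1%, 5.53, 5.86 and 6.32 at 5%, and 6.38, 5.71 and 6.46 at 20%. Its anaerobic arrays stood clear of the other 9, which overlapped (slope -1.05 ± 0.25, adjusted p = 0.0356, midpoint position 0.54, with the call lost without any 1 of the anaerobic or 5% arrays or 20% array 2, at adjusted p up to 0.156, and with the block, 0.0627). PAU24, formerly DAN3, fell most, with 8.32, 9.81 and 10.49 anaerobically, 6.05, 6.66 and 6.39 at 1%, 4.50, 5.30 and 4.29 at 5%, and 4.54, 4.06 and 4.46 at 20%. There the 5% arrays also lay below all 1% arrays (slope -1.72 ± 0.22, adjusted p = 0.000424, called with each array left out). PAU genes are near-identical copies, so probe sets may share transcripts and the members are not independent.

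Among falls the median starting level was higher where the midpoint came later, though the late class held only 3 genes. The highest level of any gene on any array was 13.68, and the 99th percentile of gene means was 12.35. The 47 falls that reached the midpoint by 1% had a median anaerobic mean of 8.80. The 33 between 1% and 5% had 9.36, and the 3 after 5% had 12.12. Among rises the order was the opposite, with median anaerobic means of 7.05, 6.36 and 6.04 for 26, 35 and 3 genes. Of the 83 falls, 6 had an anaerobic mean over 12, a limit set after these values were seen, and 0 of these 6 reached the midpoint by 1%, against 47 of all 83. They were TIR1, TIR2, TIR3, TIR4, DAN1 and ANB1. Whether compression of the brightest signals has a part in the late positions was not tested. At the other end, 10 of the 47 early falls and 5 of the 33 falls between 1% and 5% were dim genes, those in the lowest 25% by mean level (under 5.84), where differences are compressed. Of the rises, 3 of the 26 early ones and 11 of the 35 between 1% and 5% were dim. SUL1, MF(ALPHA)1, PHO84 and FLO1 among rises and SET4 and RNR3 among falls, described further on, are dim by this mean. Their mean levels exceed the limit only in the groups where they are high. PHM6, SPS1 and ZIP1 are dim as well, with every group mean under the limit.

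HPF1, a mannoprotein that lessens protein haze in wine, fell early and far. It had 10.48, 10.26 and 11.33 anaerobically, 7.78, 7.19 and 6.84 at 1%, 5.02, 4.42 and 6.40 at 5%, and 3.41, 6.10 and 4.67 at 20% oxygen. The anaerobic, 1% and 5% arrays formed separate ranges and the 20% and 5% arrays overlapped. The slope was -1.99 ± 0.25 (adjusted p = 0.000473), and 57.4% of the change was reached at 1% and 90.7% at 5%.

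Other hypoxic genes fell in part, and at different points. Of 16 tested, 7 fell and 0 rose (43.8% called, against 3.34% of all genes; median slope -0.37), and all 16 slopes were negative, against 44% of all genes. The count was 4 without anaerobic array 2, anaerobic array 3 or 20% array 2, and 6 with replicate number as block. HEM13, the oxygen-requiring coproporphyrinogen oxidase of heme synthesis, had 10.44, 11.78 and 11.22 anaerobically, 8.63, 9.36 and 7.87 at 1%, 7.90, 7.24 and 7.81 at 5%, and 6.99, 6.30 and 6.24 at 20%. All 20% arrays lay below all 5% arrays, and the lowest 1% array lay within the 5% range. Its slope was -1.49 ± 0.15 (adjusted p = 0.000137), and 54.5% of the change was reached at 1% and 75.4% at 5%. ANB1, the hypoxic form of translation factor eIF5A, had 11.82, 12.33 and 12.20 anaerobically, 11.62, 11.70 and 11.64 at 1%, 10.88, 10.93 and 11.50 at 5%, and 10.27, 9.86 and 9.81 at 20%. The 4 ranges of ANB1 did not overlap, and the last step was the largest, so that 47.4% of the change was reached at 5% (slope -0.70 ± 0.08, adjusted p = 0.000241, midpoint position 2.05).

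AAC3, the hypoxic ADP/ATP carrier of mitochondria, fell by graded steps (-0.65 ± 0.10, adjusted p = 0.002, midpoint position 1.38), while its aerobic partner PET9 rose (0.37 ± 0.08, adjusted p = 0.0242, midpoint position 1.81). The call of PET9 ended without anaerobic array 2 or 3 or 20% array 2, at adjusted p up to 0.116. EUG1, a protein disulfide isomerase of the endoplasmic reticulum, was graded with each array left out (-0.54 ± 0.07, adjusted p = 0.000509). MGA2, a membrane-bound activator of the fatty acid desaturase gene OLE1, also fell (-0.54 ± 0.11, adjusted p = 0.0191), with a call lost on omitting any of the same arrays (up to 0.0827). OLE1 itself was not called (-0.24 ± 0.08, adjusted p = 0.0994). SCM4, by contrast, reached 81.9% of its fall at 1% (-0.78 ± 0.18, adjusted p = 0.0286, lost without any 1 of the anaerobic arrays or 20% array 2, up to 0.0998). YHK8 was the seventh called fall (-0.25 ± 0.06, adjusted p = 0.032, lost in 7 of 12 omissions of 1 array, up to 0.147, and with the block, 0.0686). The hypoxic subunit COX5B (-0.17 ± 0.10, adjusted p = 0.39) and CYC7 (-0.12 ± 0.20, adjusted p = 0.796) were not called.

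Of 13 regulators of the oxygen and heme response, SET4 and MGA2 fell and 0 rose (15.4% called, against 3.34% of all genes; median slope -0.22). The count was 1 without anaerobic array 2, anaerobic array 3 or 20% array 2, and 5 without 1% array 3. SET4, a SET-domain protein, had 7.76, 8.41 and 8.26 anaerobically, 7.23, 7.07 and 6.94 at 1%, 4.37, 6.31 and 3.56 at 5%, and 2.46, 3.07 and 4.49 at 20% oxygen. Anaerobic, 1% and 5% arrays formed separate ranges, and the highest 20% array lay within the 5% range (slope -1.67 ± 0.19, adjusted p = 0.000241, midpoint position 1.57). ROX1 (-0.54 ± 0.32, adjusted p = 0.353) and HAP1, the heme-responsive activator (-0.22 ± 0.07, adjusted p = 0.0765), were not called. Of 8 heme synthesis genes HEM13 and HEM14, which encodes protoporphyrinogen oxidase, fell (25%, against 3.34% of all genes), HEM14 with a slope of -0.33 ± 0.07 (adjusted p = 0.026). Of 25 ergosterol synthesis genes CYB5, the cytochrome b5 that hands electrons to sterol and lipid enzymes, was the called one (4%, near the 3.34% of all genes; -0.41 ± 0.09, adjusted p = 0.029). The call of HEM14 ended without anaerobic array 2 or 3 or 20% array 2 (adjusted p up to 0.123) and with replicate number as block (0.0513). That of CYB5 ended without anaerobic array 1 or 2 or 20% array 2 or 3 (up to 0.104).

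IZH2 and IZH4, membrane proteins linked to zinc and sterol metabolism, changed little by 1% oxygen. IZH4 had 10.55, 10.03 and 10.27 anaerobically, 9.88, 9.75 and 10.35 at 1%, 8.28, 9.49 and 8.64 at 5%, and 6.39, 7.0 and 8.51 at 20% oxygen. The 1% arrays overlapped the anaerobic range, and 9.77% of the change was reached at 1% and 49.7% at 5% (slope -1.01 ± 0.16, adjusted p = 0.00245). Its midpoint position of 2.01 ranged from 1.78 to 2.15 with 1 array left out. IZH2 fell by -0.63 ± 0.08 per level (adjusted p = 0.000333), with 16% of the change at 1% and 78.8% at 5%, and a midpoint position of 1.54.

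HUG1, a small inhibitor of ribonucleotide reductase, had 10.04, 11.12 and 10.57 anaerobically, 8.47, 8.96 and 7.57 at 1%, 5.85, 7.25 and 5.93 at 5%, and 5.42, 4.93 and 5.39 at 20%. Its 4 ranges did not overlap, and its slope of -1.80 ± 0.15 had the smallest adjusted p of all genes (4.03e-05). RNR3, the damage-inducible large subunit of that enzyme, fell early: it had 8.76, 6.86 and 8.36 anaerobically, 5.71, 5.49 and 5.49 at 1%, 4.52, 4.93 and 4.58 at 5%, and 4.45, 4.07 and 5.08 at 20%. Its 5% and 20% arrays overlapped and 70.3% of the change was reached at 1% (slope -1.13 ± 0.18, adjusted p = 0.00378). All 1%, 5% and 20% arrays of RNR3 lay under the dim limit of 5.84, where differences are compressed. HUG1 and RNR3 were the called genes of 9 in the ribonucleotide reductase and DNA damage list (22.2%, against 3.34% of all genes).

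TSA2, a cytoplasmic peroxiredoxin, was the called gene of 26 in peroxide and superoxide defence (3.85%, near the share of all genes). It had 8.68, 7.59 and 8.26 anaerobically, 6.16, 5.69 and 7.22 at 1%, 5.13, 4.60 and 5.41 at 5%, and 3.57, 4.20 and 4.02 at 20% oxygen. The 4 ranges did not overlap and ran downwards (slope -1.41 ± 0.12, adjusted p = 5e-05, midpoint position 1.23). ADH7, an NADPH-dependent alcohol dehydrogenase, was the called gene of 15 in ester and fusel alcohol synthesis (6.67%, against 3.34% of all genes). It had 8.03, 9.21 and 8.97 anaerobically, 5.92, 6.38 and 7.38 at 1%, 4.46, 4.75 and 4.03 at 5%, and 3.53, 4.42 and 3.87 at 20%. Only its 5% and 20% arrays overlapped (slope -1.65 ± 0.16, adjusted p = 9.48e-05, midpoint position 1.10).

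Early falls outside these lists included PKH1, a protein kinase of sphingolipid signalling (-0.96 ± 0.14, adjusted p = 0.00157), with 63.9% of the change reached at 1% and 100% at 5%. FAA4, a long-chain fatty acyl-CoA synthetase, had 10.67, 10.71 and 10.64 anaerobically, 9.23, 8.86 and 7.66 at 1%, 7.43, 7.75 and 8.67 at 5%, and 8.33, 7.73 and 8.28 at 20% oxygen. Its anaerobic arrays lay within 0.07 of each other and above all the others, which overlapped (slope -0.83 ± 0.18, adjusted p = 0.0221, lost without any 1 of the anaerobic arrays or 20% array 2, up to 0.104, and with replicate number as block, 0.0506). FAA1, which encodes the other main acyl-CoA synthetase, rose by graded steps instead (0.61 ± 0.10, adjusted p = 0.00378, midpoint position 1.18). PBI1 fell between 1% and 5% (-1.48 ± 0.19, adjusted p = 0.000424, 22.2% of the change at 1% and 92.5% at 5%).

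The steepest rise was that of PUT4, the proline permease, a gene held down by good nitrogen sources. It had 7.03, 4.92 and 5.62 on the anaerobic arrays, 8.65, 8.33 and 6.16 at 1%, 8.99, 9.39 and 9.90 at 5%, and 10.99, 10.24 and 11.01 at 20% oxygen. The 1%, 5% and 20% arrays formed separate ranges, while the lowest 1% array lay within the anaerobic range. The slope was 1.64 ± 0.19 (adjusted p = 0.000241), with 38% of the change at 1% and 73.1% at 5%. DAL5, the allantoate permease, rose by 1.23 ± 0.20 per level (adjusted p = 0.0033), with 7.11, 7.93 and 8.09 anaerobically, 10.52, 10.06 and 7.53 at 1%, 10.87, 11.12 and 10.66 at 5%, and 11.56, 10.76 and 11.57 at 20%. 1% array 3 lay within the anaerobic range and the other 1% arrays just below the 5% range. VBA3, a vacuolar transporter of basic amino acids, rose as well (1.36 ± 0.32, adjusted p = 0.0325), a call that ended without anaerobic array 3, any 1 of the 5% arrays or 20% array 3 (adjusted p up to 0.106), and with replicate number as block (0.0513). Its anaerobic arrays were far apart, at 8.66, 3.41 and 7.22, and the first of them was level with the lowest 1% array. PUT4, DAL5 and VBA3 were the called genes among 25 of nitrogen catabolite repression (12%, against 3.34% of all genes), and the median slope of that list was 0.09. Of 44 amino acid synthesis genes 2 rose and 0 fell, a share of 4.55% that is near that of all genes. They were the arginine genes ARG8 (0.41 ± 0.08, adjusted p = 0.013) and ARG4 (0.34 ± 0.08, adjusted p = 0.0275), both with graded means. Without anaerobic array 3 neither was called (0.0702 and 0.0965), and ARG4 was also lost without anaerobic array 1 or 2 or 20% array 2.

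SUL1, the high-affinity sulfate permease and the called gene of 24 in sulfate and methionine metabolism (4.17%, near the share of all genes), rested on few arrays. It had 2.71, 2.15 and 2.19 anaerobically, 2.86, 1.98 and 3.41 at 1%, 6.17, 4.69 and 4.32 at 5%, and 8.02, 3.29 and 9.72 at 20% oxygen. The second 20% array lay within the 1% range, and the call (slope 1.63 ± 0.37, adjusted p = 0.0276) ended without anaerobic array 2, anaerobic array 3 or 20% array 3 (up to 0.0871). YCT1, a cysteine transporter, rose early (0.86 ± 0.19, adjusted p = 0.0276, 71% of the change at 1%), and was lost without the same arrays (up to 0.115).

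Phosphate genes moved in both directions. PHO84, the high-affinity phosphate transporter, had 3.57, 5.44 and 3.56 anaerobically, 4.31, 2.66 and 3.94 at 1%, 5.65, 6.70 and 6.25 at 5%, and 8.38, 6.62 and 7.26 at 20% oxygen. The anaerobic and 1% arrays overlapped and all 6 others were above them (slope 1.23 ± 0.24, adjusted p = 0.0117). Its 1% mean lay below the anaerobic one, so -17.2% of the change was reached at 1% and 62.3% at 5%, and it was one of 2 genes whose single large step lay between 1% and 5%. PHO5, the secreted acid phosphatase, went the other way: it had 7.43, 8.53 and 8.41 anaerobically, 6.13, 6.17 and 6.46 at 1%, 5.93, 6.02 and 5.67 at 5%, and 5.68, 5.57 and 5.87 at 20%. All anaerobic arrays stood above the 1% range, and 77.4% of the fall was reached at 1% (slope -0.76 ± 0.13, adjusted p = 0.00621). PHM6 (0.50 ± 0.09, adjusted p = 0.00723), the glycerophosphoinositol transporter GIT1 (0.63 ± 0.15, adjusted p = 0.032) and the polyphosphate synthase subunit VTC4 (0.25 ± 0.06, adjusted p = 0.044) rose. That made 4 rises and 1 fall among 14 phosphate genes (35.7% called, against 3.34% of all genes; 3 to 6 genes with 1 array left out), with the calls of GIT1 and VTC4 lost in 8 and 10 of the 12 omissions of 1 array (adjusted p up to 0.104 and 0.144) and that of VTC4 also with replicate number as block (0.0932).

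Some genes of cytochrome c oxidase rose, and those that did had reached the midpoint by 1%. Of 9 genes of cytochrome c oxidase and cytochrome c, 3 rose and 0 fell (33.3% against 3.34% of all genes; median slope 0.37), and all 9 slopes were positive, against 56% of all genes. The count was 1 to 7 with 1 array left out, and 1 with replicate number as block. The median difference from anaerobic was 0.66 at 1%, 0.94 at 5% and 1.14 at 20% oxygen. COX5A, the aerobic form of subunit V, had 9.84, 8.85 and 8.78 anaerobically, 10.13, 9.73 and 10.69 at 1%, 10.72, 10.54 and 11.11 at 5%, and 10.73, 11.37 and 10.87 at 20%. Anaerobic array 1 lay within the 1% range, and the 20% and 5% arrays overlapped (slope 0.61 ± 0.11, adjusted p = 0.00717, 56% of the change at 1% and 89% at 5%). COX4 (0.51 ± 0.13, adjusted p = 0.0389) and COX12 (0.37 ± 0.09, adjusted p = 0.0316) also reached the midpoint by 1%, and their calls ended in 9 and 5 of the 12 omissions of 1 array, anaerobic arrays 2 and 3 among them (adjusted p up to 0.174 and 0.147), and with replicate number as block (0.0686 and 0.0568). CYC1, the main cytochrome c, was not called (0.88 ± 0.28, adjusted p = 0.0981). Anaerobic array 1 was higher than its partners over this list, with a median of 9.66 against 8.85 and 8.75, and the part of that array in the early position was not tested beyond the leave-outs.

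All 15 ATP synthase genes had positive slopes, against 56% of all genes, with 0 called (median slope 0.17). In a list of this size 0 is near the 3.34% of all genes. ATP3 had the smallest adjusted p (0.22 ± 0.06, adjusted p = 0.0663). The count was 0 to 6 with 1 array left out, 6 being without 1% array 3. It was 4 by the linear contrast of a fit with a mean per group. Over the list the median difference from anaerobic was 0.70 at 1%, 0.65 at 5% and 0.58 at 20% oxygen. COR1 of the cytochrome bc1 complex rose (0.37 ± 0.09, adjusted p = 0.0362), the called gene of 9 in that list (11.1%, against 3.34% of all genes). Its call ended in 8 of 12 omissions of 1 array (adjusted p up to 0.151) and with replicate number as block (0.0645). No called gene was found among 8 succinate and NADH dehydrogenase genes or among 14 tricarboxylic acid cycle genes. In lists this small 0 is near the 3.34% of all genes. NDI1 came closest in the first list (0.38 ± 0.11, adjusted p = 0.0783) and LSC1 in the second (0.24 ± 0.06, adjusted p = 0.0515). Without anaerobic array 1, 3 of those 8 dehydrogenase genes were called. Without 1% array 3 or 20% array 1, 2 of the 14 cycle genes were. MLS1, malate synthase of the glyoxylate cycle, was the called gene of 14 in its list (7.14%, against 3.34% of all genes). It had 5.22, 5.68 and 5.15 anaerobically, 6.96, 7.58 and 5.29 at 1%, 7.89, 7.85 and 8.10 at 5%, and 8.50, 8.51 and 8.21 at 20%. 1% array 3 lay within the anaerobic range and all 20% arrays lay above all 5% arrays (slope 1.05 ± 0.14, adjusted p = 0.00071). MIR1, the mitochondrial phosphate carrier, rose chiefly between 1% and 5% (0.53 ± 0.08, adjusted p = 0.00214).

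**Figure D2:**
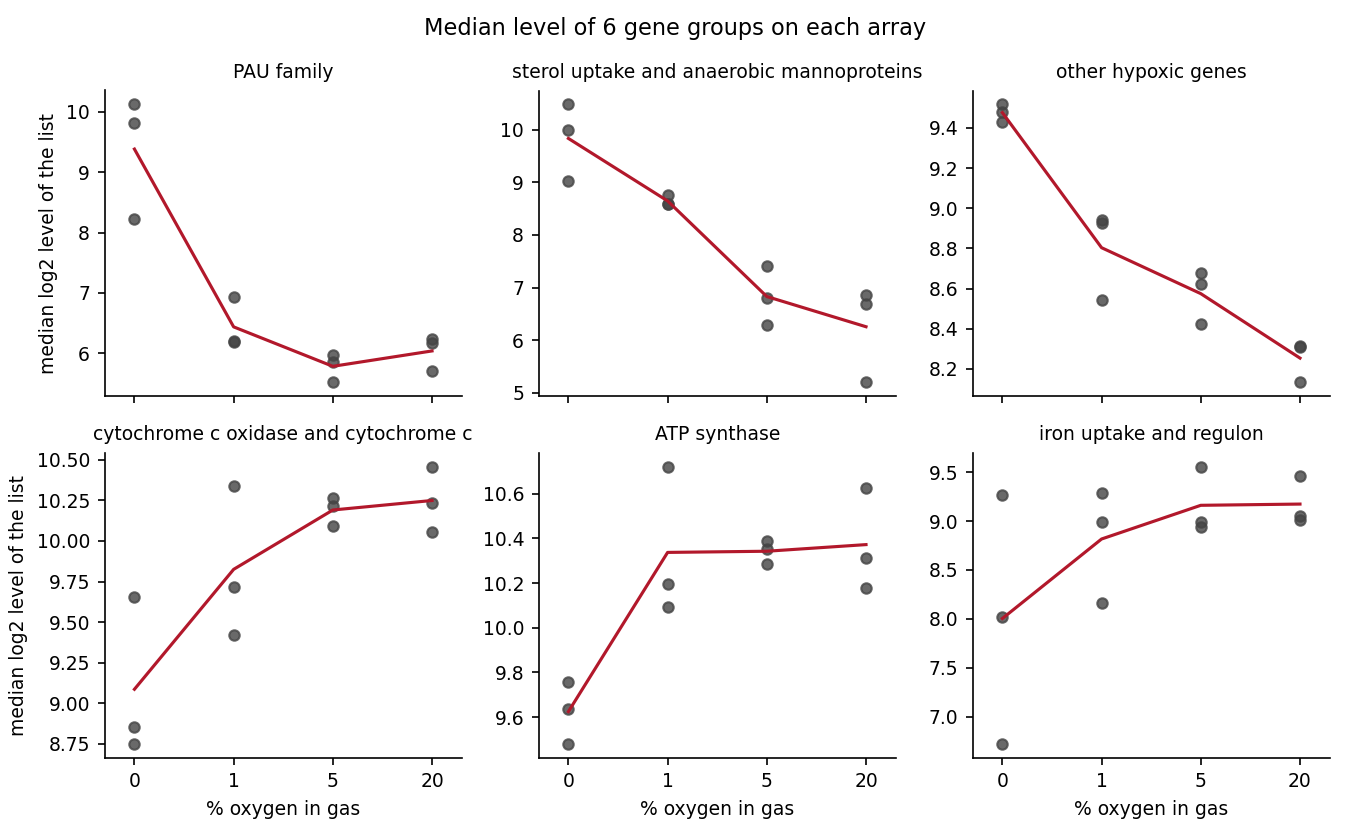
Median log2 level (vertical axes, own ranges) over the tested genes of 6 groups on each array, against % oxygen in the gas; points are arrays and lines join the group means of the medians. PAU and ATP synthase medians level off from 1%, the sterol uptake and mannoprotein and other hypoxic medians go on down to 20%, and anaerobic array 1 lies high for cytochrome c oxidase and iron.

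Iron genes rose in 3 of 26 cases, with 0 falls (11.5% called, against 3.34% of all genes; median slope 0.39). Without anaerobic array 3 the count was 0, and over the other omissions it was 2 to 5. HMX1, heme oxygenase, had 8.05, 3.48 and 4.50 anaerobically, 7.61, 6.93 and 6.25 at 1%, 8.27, 9.28 and 8.37 at 5%, and 9.44, 9.10 and 9.30 at 20% oxygen. Anaerobic array 1 lay above all 1% arrays, unlike its partners, and the call ended without anaerobic array 3 (slope 1.35 ± 0.26, adjusted p = 0.0119, and 0.0635 without that array). FRE3, a ferric reductase for iron-siderophore complexes, had 6.94, 4.93 and 5.81 anaerobically, 7.87, 7.61 and 7.39 at 1%, 7.82, 8.66 and 8.11 at 5%, and 7.81, 8.39 and 8.91 at 20%. All anaerobic arrays lay below the others, which overlapped (slope 0.80 ± 0.16, adjusted p = 0.0153, and 0.0801 without anaerobic array 3; 69.8% of the change at 1%). FRE6, a vacuolar ferric reductase, also rose (0.33 ± 0.08, adjusted p = 0.033, lost in 6 of 12 omissions of 1 array, up to 0.13, and with the block, 0.0706). Over the list the median level was 9.27 on anaerobic array 1, against 6.72 and 8.02 on its partners, and its part in the slopes was not tested beyond the leave-outs.

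MF(ALPHA)1, which encodes the alpha-factor mating pheromone, rose by graded steps. It had 2.79, 4.50 and 3.55 anaerobically, 5.02, 4.83 and 3.84 at 1%, 5.63, 5.91 and 6.31 at 5%, and 8.35, 7.37 and 6.98 at 20% oxygen. The 1%, 5% and 20% ranges were separate, and the lowest 1% array lay within the anaerobic range (slope 1.33 ± 0.14, adjusted p = 0.000137, midpoint position 1.74). The other 18 of 19 haploid mating genes were not called (5.26% called, against 3.34% of all genes). This list marks another cell type, since a diploid wine yeast does not normally express pheromone genes, and 17 of its 19 genes were dim. Its summed linear level, MF(ALPHA)1 included, ranged from 314 to 440 anaerobically, from 380 to 528 at 1%, from 479 to 505 at 5% and from 561 to 770 at 20%. A sum without MF(ALPHA)1 was not made, so the higher sums are not separate from the rise of that gene. The median difference from anaerobic over the list was 0.26 at 20%, against 0.05 over all genes. Among 16 meiosis and sporulation genes, 15 were dim and 12.5% were called, against 3.34% of all genes. The kinase gene SPS1 rose (0.34 ± 0.07, adjusted p = 0.0136, and 0.0613 without anaerobic array 3). The synaptonemal complex gene ZIP1 fell (-0.31 ± 0.07, adjusted p = 0.0362, lost in 9 of 12 omissions, up to 0.171, and with the block, 0.0686). The summed level of this list, SPS1 and ZIP1 included, was 354 to 486 at 20% and 239 to 397 anaerobically. Whether a change in the share of such cells has a part in MF(ALPHA)1 and SPS1 was not tested, and fewer cells of a type and less RNA per cell cannot be told apart in these bulk samples.

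The flocculin gene FLO1, whose product makes cells stick together, rose over the series, with all of its rise above 1%. It had 3.48, 3.40 and 2.83 anaerobically, 3.17, 1.81 and 3.70 at 1%, 5.04, 4.95 and 4.28 at 5%, and 5.87, 6.28 and 5.82 at 20% oxygen. The anaerobic and 1% arrays overlapped, and the 20% arrays all exceeded the 5% arrays (slope 1.01 ± 0.17, adjusted p = 0.00447, midpoint position 1.92). FLO9 had a similar course (0.66 ± 0.15, adjusted p = 0.0316), with a call that ended without anaerobic array 2 or 3, 5% array 2 or any 1 of the 20% arrays (up to 0.0938). FLO1 and FLO9 share long repeats, so their signals may not be independent. With HPF1 they made 2 rises and 1 fall among 18 flocculin and wall genes (16.7% called, against 3.34% of all genes; 2 to 6 genes with 1 array left out).

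Several functions had no called gene (0% in each, against 3.34% of all genes). They were glycolysis and fermentation (24 genes), hexose transport (15), ribosome biogenesis (68), and cytosolic (128) and mitochondrial (70) ribosomal proteins. Heat shock and storage carbohydrates (22) and NAD synthesis (13) made the rest. For the lists of 24 genes or fewer, 0 is near the share of all genes. With 1 array left out the highest count was 2, 1, 0, 0, 2, 3 and 1, in that order. Among ribosome biogenesis genes the median difference from anaerobic was -0.73 at 1%, -0.18 at 5% and -0.20 at 20% oxygen, a dip that a straight line does not capture. The third 1% array had the lowest median of that list, 6.36, against 7.37 and 7.06 on the other 1% arrays.

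Among the 147 genes with a midpoint position, 73 (49.7%) had reached the midpoint by 1% oxygen, 68 (46.3%) did so between 1% and 5%, and 6 (4.08%) after 5%. For the 64 rises the counts were 26, 35 and 3, and for the 83 falls 47, 33 and 3. The median position was 1.02, at 1.09 for rises and 0.88 for falls. The interval stayed the same with each array left out for 91 genes, 56 by 1%, 34 between 1% and 5% and 1 after 5%. That one was SPS1, with positions between 2.04 and 2.35. The 6 late genes were DAN1, ANB1, IZH4, SPS1, FLO9 and QDR3, a multidrug transporter (0.39 ± 0.08, adjusted p = 0.011, and 0.0537 without anaerobic array 3). With 1 array left out the share that had reached the midpoint by 1% ranged from 32.4% without 20% array 2 to 65.3% without 1% array 3.

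**Figure D3:**
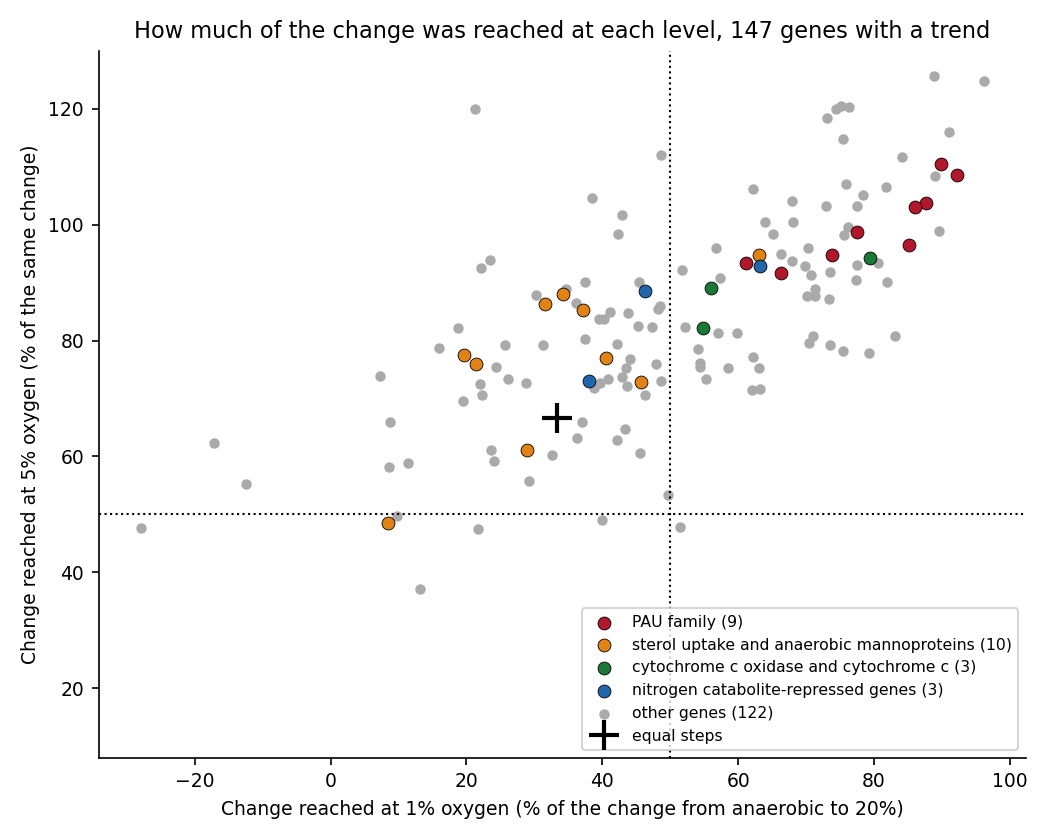
Percent of the total change reached at 5% (vertical) against that reached at 1% oxygen (horizontal) for the 147 genes; each point is a gene, colours mark 4 gene groups, dotted lines mark 50% and the cross marks equal steps. The 9 PAU genes lie to the right of 60% at 1%, and 9 of the 10 sterol uptake and mannoprotein genes lie left of 50%.

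Shapes were defined on the same means. A gene was graded when its means were in order and no step exceeded 50% of the total, switch-like when 1 step carried at least 75%, turning when a middle mean passed beyond either end mean by over 25% of the change, and otherwise mixed. By this measure 43 genes were graded (26 rises and 17 falls), 30 switch-like (9 and 21), 72 mixed (28 and 44) and 2 turning, FLO9 and the chitin synthase export gene CHS5, whose trend call ended in 8 of 12 omissions (up to 0.168) and with the block (0.0767). Of the 30 switch-like genes, 28 switched at the first step. PHO84 and YBL111C switched between 1% and 5%, and none between 5% and 20%. The shape stayed the same in every leave-out for 25 genes, 7 graded, 7 switch-like and 11 mixed. The 7 genes graded in every leave-out were MF(ALPHA)1 and YIL165C among rises, and HUG1, TIR1, UPC2, EUG1 and YGL039W among falls. The genes switch-like in every leave-out were PAU4, PAU5, PAU17, PAU18, YPR015C and YNL134C among falls and TMT1, a methyltransferase gene, among rises (0.59 ± 0.14, adjusted p = 0.032). Their trend calls were less steady than their shapes. The call ended in 7 of 12 omissions for PAU4, PAU17 and PAU18, in 6 for TMT1, in 4 for YNL134C, in 3 for PAU5 and in 1 for YPR015C, and with the block for all of these but YPR015C (adjusted p from 0.0521 to 0.0686). Most single assignments therefore depended on at least 1 array.

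**Figure D4:**
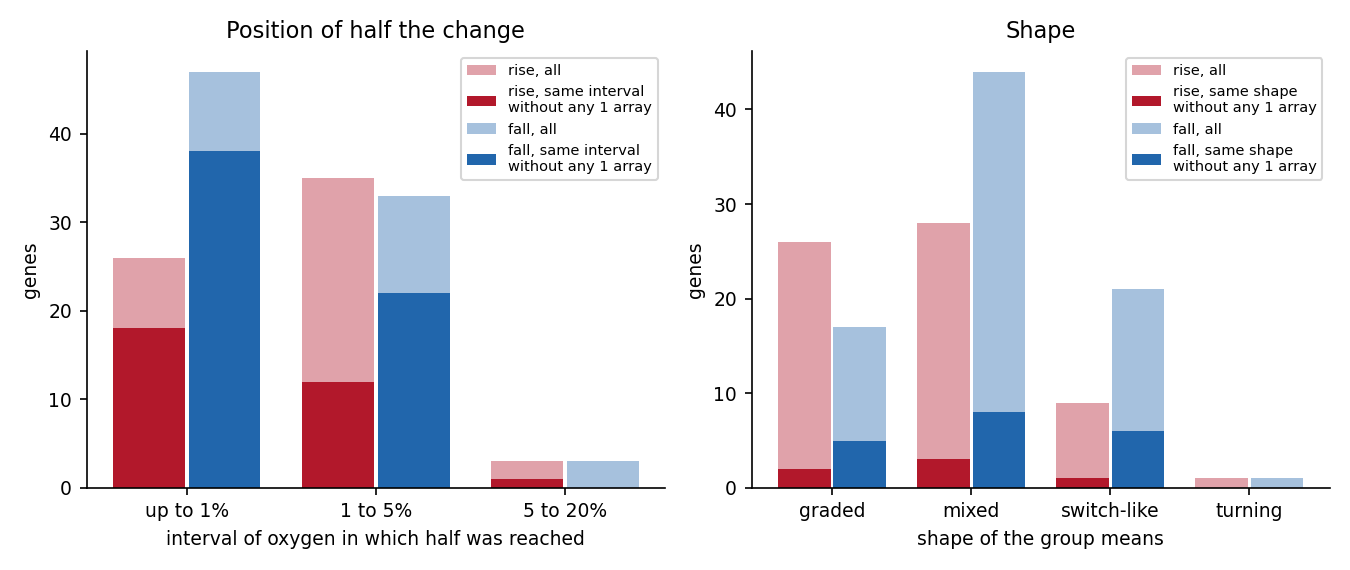
Number of genes (vertical axes) by the interval in which the midpoint was reached (left) and by shape of the group means (right), with rises in red and falls in blue; dark bars count genes whose interval or shape was the same with each array left out. Falls outnumber rises by 47 to 26 in the first interval and by 21 to 9 among switch-like genes.

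A fit with a mean per group was used to ask whether any gene departed from the line. With 2 df for the departure, 0 of 5449 genes were called (0%; limma moderated F, smallest adjusted p = 0.0748), and 104 and 176 were called without 1% array 1 and 5% array 3. At an unadjusted p under 0.05, 1252 of all genes (23%) and 46 of the 182 (25.3%) departed. These shares cannot be compared freely, because the line leaves a departure in its residual and so calls strongly bent genes less often. The bend alone, the last step minus the first, was called for 418 genes (7.67%), of which 338 had the last step above the first and 80 below. It was called for 19 of the 182 (10.4%), 17 falls and the rises of TMT1 and the biotin transporter gene VHT1 (a trend lost without anaerobic array 2 or 3, up to 0.0861), all with the larger step first. These falls included RNR3, PHO5, PKH1, FAA4 and 6 PAU genes. The linear contrast of the fit with a mean per group called 488 genes for trend, and 156 of these had a called bend. The count of bends was 0 without any of anaerobic arrays 2 and 3, 5% arrays 1 and 2, and 20% arrays 1 and 3. The first step exceeded the last, in the direction of the change, in 147 of the 182 (80.8%), against 70.6% of all genes.

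With all 12 arrays, single steps were called at the start of the series and not later. Between 1% oxygen and anaerobic 895 genes were called (16.4%), and 72 of the 182 (39.6%) were among them. That count was 443, 36 and 172 without anaerobic arrays 1, 2 and 3, and 322 without 1% array 3. Between 5% and 1%, 0 were called (0%; smallest adjusted p = 0.12, 265 genes at an unadjusted p under 0.05, and 6 called without 5% array 2), and between 20% and 5%, 0 were called (0%; smallest adjusted p = 0.503, 149 unadjusted). A line over only the 9 oxygenated arrays, added after the data were seen, called 24 genes (0.44%), 7 rises and 17 falls. The count was 1, 3 and 12 without 1% arrays 1, 2 and 3, and 8, 11 and 9 without 20% arrays 1, 2 and 3. Of these, 23 were among the 182, and the other was NDE1, the external NADH dehydrogenase (1.26 ± 0.20 per level over 1% to 20%, adjusted p = 0.0221; over all 4 levels 0.75 ± 0.22, adjusted p = 0.0824). The slopes from 1% to 20% were 1.89 ± 0.27 for PHO84, 1.55 ± 0.21 for FLO1, 1.5 ± 0.19 for MF(ALPHA)1, -1.90 ± 0.26 for TIR2, -2.47 ± 0.46 for DAN1 and -0.84 ± 0.12 for ANB1. All 182 genes had the same sign in this line, and 107 of them (58.8%) had an unadjusted p under 0.05, against 12.4% of all genes. The 2 lines share 9 arrays and are not independent.

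Which genes count as linear depended on the spacing given to the levels. With the micromolar values of the titles 94 genes had a trend (1.73%) and 224 departed from the line (4.11%). With those of the condition text the numbers were 33 (0.606%) and 531 (9.74%), and with the percent of oxygen in the gas 6 (0.11%) and 620 (11.4%). The genes called under these spacings were all among the 182. The 6 that followed the gas percentage were ANB1, DAN1, IZH4, FLO1, MF(ALPHA)1 and SPS1, with slopes per percent of oxygen between -0.258 ± 0.0413 for DAN1 and 0.174 ± 0.0264 for MF(ALPHA)1.

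**Figure D5:**
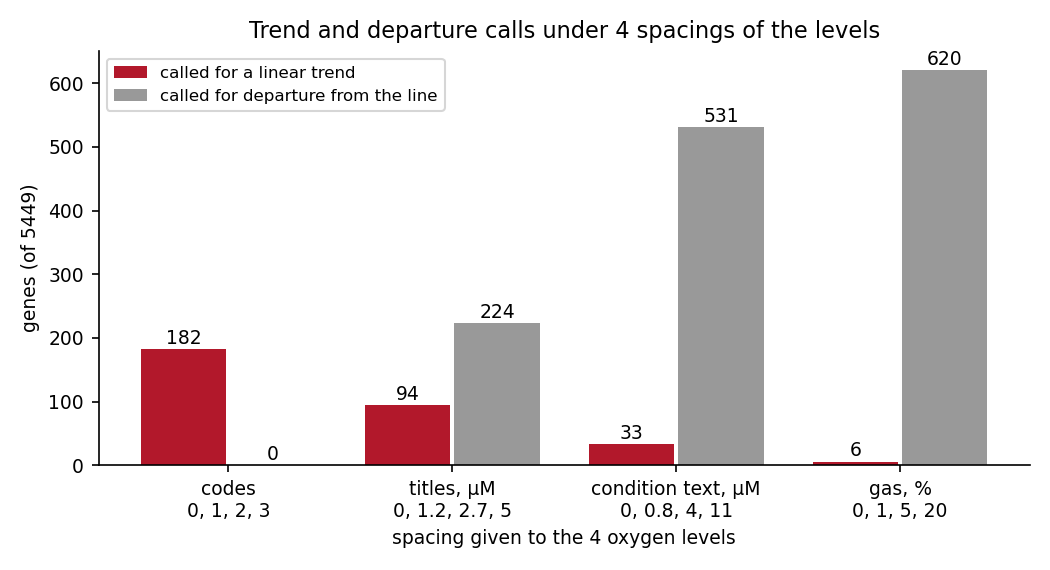
Number of genes of 5449 (vertical axis) called for a linear trend (red) and for departure from the line (grey) under 4 spacings of the oxygen levels (horizontal axis). Trend calls go down and departure calls go up as the 20% level is placed farther from the rest, with 182 and 0 for equal steps and 6 and 620 for the gas percentage.

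Arrays correlated with the mean of their group at 0.94 to 0.992, and 1% array 3 deviated most, with an SD of 0.548 against 0.189 to 0.399 for the others. It was the lowest of its group for TIR1, TIR2, TIR4, DAN1, DAL5, PUT4, MLS1 and MF(ALPHA)1. Without that array 557 genes had a trend, and without 20% array 1, 382. The count was 91 and 67 without anaerobic arrays 2 and 3, and 116 without 20% array 2. The line leaves the scatter of a stepwise gene in its residual, and the linear contrast of the fit with a mean per group called 488 genes, all of the 182 among them. Of those, 310 had a midpoint position, and 229 of these (73.9%) reached it by 1%, so the near-even split between the first and second intervals holds for genes chosen by the line and not for that wider set.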

How the data were processed

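The authors deposited 1 table of log2 values for 5716 probe sets of an Affymetrix array hybridised with biotin-labelled RNA from 12 samples. RMA, a method that corrects background, normalizes and summarises probes, comes from the submitters' processing notes. Neither its settings nor the genome build is given in the sources used here. The log2 scale of the deposited values was inferred from their range. Arrays have no read depth; precision is limited by the number of arrays. A platform table named 1 gene for 5498 probe sets and none for 218, and 12 symbols were updated through the R64 gene table. For 47 genes with several probe sets the one with the highest mean was taken, leaving 5449 genes.

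A line on the codes 0 to 3 was fitted with limma 3.58.1 (lmFit, eBayes) in R 4.3.3, with 10 residual and 3.9 prior degrees of freedom; the fit with a mean per group had 8 and 4.11. P-values were Benjamini-Hochberg adjusted over all genes. Errors of slopes are standard errors. The fits were also run on simulated data with independent noise for each gene and array. That setting leaves out deviations of whole arrays, so it cannot tell how such deviations affect the calls. Replicate numbers recur in every group, and the labels do not say whether equal numbers share a run or day. Most same-numbered arrays did not deviate together (18 pairs, r from -0.317 to 0.358, 2 of them over 0.1). No block was used in the main fit, and the block was run as an alternative.

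The gene lists and the rule for named genes were chosen with earlier results of these data known. The rule took, among called non-PAU genes with no overlap between 20% and anaerobic arrays and a mean above the 25th percentile in the higher of those 2 groups, the 10 steepest in each direction; 5 of these 20 were dim by their mean over all arrays. It added up to 4 per midpoint interval and direction whose interval held in every leave-out, the 5 largest graded genes per direction, and up to 2 rises and 2 falls of each list, or else its member with the smallest p. It also provided for genes called for both trend and departure, of which there were 0. Other genes were named after their values were seen. Alternatives were other level spacings, quantile and median scaling, filters on dim genes, other probe set rules, other priors, a replicate block and omitted arrays. Promoter and protein sequences were not analysed here.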

Additional observations from a re-analysis of the deposited data

Results flagged for a closer look

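Probe sets with no gene name in the platform annotation were left out of the gene tests. Fitted together with all probe sets, 12 of the 218 had a called trend (5.5%; limma), 6 higher and 6 lower with oxygen. The steepest of them had group means of 9.95, 6.53, 4.28 and 3.96 over the 4 levels (slope -2.02 ± 0.25, adjusted p = 0.000429).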

How the results depend on the processing

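The count of genes with a trend stayed within 1.5 times 182 under quantile (254) and median (200) scaling, without dim genes (180), with all probe sets (201) or their mean (182), and with a trended (206) or robust (182) prior. It was 488 by the linear contrast of the fit with a mean per group. With the spacing of the titles, the condition text and the gas it was 94, 33 and 6. It was 67 to 557 with 1 array left out, and 331 without both anaerobic array 1 and 1% array 3 (209 rises and 122 falls). Of these 2 arrays only 1% array 3 deviated most from its group (SD 0.548). Anaerobic array 1 (0.328) deviated less than 1% array 2 (0.399), which was kept. With the replicate number as a block the count of genes with a trend was 112 (58 rises and 54 falls). Of the 12 arrays, 1 correlated best with an array of its own number. The labels do not say whether equal numbers share a run or day, and these correlations cannot decide it.

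Departure calls, 0 with the codes, were 224, 531 and 620 with those 3 spacings and 3 without dim genes. They were 10 without both anaerobic array 1 and 1% array 3, 0 with the block and 0 to 176 with 1 array left out. The share reaching the midpoint by 1%, 49.7%, was 73.9% for genes of the fit with a mean per group (chosen after seeing the data), 61.9% with quantile scaling and 32.4% to 65.3% with 1 array left out. The count of bends, 418, was 273 with quantile scaling, 253 without dim genes and 53 without those 2 arrays. The causes were not tested.

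Over 1404 alternative fits of the named genes the slope kept its sign in all. Fits that changed only the prior, the block, the dim filter, the probe set rule or the group means leave these slopes identical. Their sign could not change, and fits without 1 array share most arrays with the main fit. The kept sign is therefore a weak check. The side of the threshold was kept in 1192, a call ended in 173 and one was gained in 39. Of 49 named genes with a call, MF(ALPHA)1, FLO1, DAN1, ANB1 and IZH4 kept it in every alternative run. The runs included the spacing by gas percentage, under which 6 genes in all were called, with midpoint positions from 1.74 to 2.20. That spacing alone ended the calls of HUG1, TIR2 and TSA2, so a call kept in every run also depends on a late midpoint.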
